A study of Mus musculus with 6 samples.

Results

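The 9 genes described here encode the signalling part of the T cell receptor and the first enzymes and scaffolds that act below it. They are the CD3 chains Cd3d, Cd3e, Cd3g and Cd247, the kinases Lck and Zap70, the adaptors Lat and Lcp2, and Plcg1, the phospholipase C-gamma1 gene. They were found by gene symbol in the count files, and all 9 of 9 were present, each as a single entry among 23282. The samples were regulatory T cells (Treg), CD4 T cells that restrain immune responses, purified by cell sorting from spleens of the C57BL/6 strain and not stimulated before RNA was taken. One group was the conditional knockout of inositol polyphosphate multikinase (IPMK cKO, 3 libraries), and the other was wild type (3 libraries). The sources used here do not give age, sex, the driver of the deletion, the deleted part of Ipmk or whether animals were pooled. The labels call the libraries biological replicates but name no animals, and the p-values therefore cover the variation among these 6 libraries, some of which may be technical.

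The antigen receptor of a T cell binds its ligand but has no kinase of its own. When it is engaged, LCK phosphorylates the tyrosine motifs in the tails of the CD3 chains, ZAP-70 docks on them and phosphorylates the scaffolds LAT and SLP-76 (the product of Lcp2), and phospholipase C-gamma1 is recruited and activated there. Phospholipase C-gamma1 cleaves a membrane phosphoinositide into diacylglycerol and inositol trisphosphate (IP3). IP3 opens calcium channels of the endoplasmic reticulum and is also a substrate of IPMK, which adds further phosphates. Treg need signals of this receptor for their development and for their effector state. The study as a whole asked how inositol polyphosphates bear on calcium influx in effector Treg, and the comparison below is of transcript levels only, in cells whose receptor had not been triggered in culture.

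The libraries held 7464546 to 8980395 counts, and 5287300 to 7130660 when the ribosomal RNA precursor Rn45s was set aside. Levels are CPM, counts scaled to a common library size after TMM adjustment. The kit reads the 3′ end of each transcript, so a transcript gives tags regardless of its length and levels were not divided by length. Ipmk, the targeted gene, was at 0.42, 2.74 and 0 CPM in IPMK cKO replicates 1 to 3, against 15.5, 10.5 and 10.3 CPM in wild type replicates 1 to 3. The 6 Treg markers examined (Foxp3, Il2ra, Ikzf2, Ctla4, Tnfrsf18 and Cd4) were detected and summed to 2028 to 2397 CPM in IPMK cKO and 2014 to 2841 CPM in wild type libraries, with Ikzf2 the largest part. Foxp3, the transcription factor that defines the lineage, was at 85.1, 72.0 and 82.3 CPM in IPMK cKO, against 10.3, 80.6 and 29.0 CPM in wild type. Among the CD8 T cell markers Cd8a had no count in any library and Cd8b1 gave 2.11 to 8.62 CPM in IPMK cKO and 7.82 to 12.2 CPM in wild type. NK cells also use several of the 9 genes. Of the 5 NK cell markers Ncr1, Klre1 and Klra8 had no count in any library, and the list summed to 11.8 to 22.5 CPM in IPMK cKO and 1.91 to 7.94 CPM in wild type. Nearly all of that sum was Eomes, at 22.5, 11.8 and 15.0 CPM in IPMK cKO, against 0, 1.91 and 3.85 CPM in wild type, apart from 7.94 CPM of Klrb1c in wild type replicate 1. Markers of B cells summed to 11.8 to 14.2 CPM in IPMK cKO and 10.8 to 26.2 CPM in wild type, with Pax5 and Blk at 0 throughout. Most of that was Cd79b and Cd22, apart from 8.02 CPM of Cd79a in IPMK cKO replicate 1. Myeloid markers summed to 14.4 to 85.5 CPM in IPMK cKO and 56.8 to 70.9 CPM in wild type. Most of this sum was Cst3, at 14.4, 29.1 and 71.3 CPM in IPMK cKO, against 70.3, 48.5 and 57.8 CPM in wild type. Erythroid markers summed to 0 to 16.7 CPM in IPMK cKO and 0.12 to 56.3 CPM in wild type, highest in wild type replicate 2. The part of these cells in the results was not tested. IPMK cKO replicate 1 held the highest or lowest value, ties included, of 63.9% of the 10475 genes tested, a share worked out for this library only. Its log2 CPM correlated with the other libraries at 0.659 to 0.731, while those correlated with each other at 0.710 to 0.866. Estimates for the 9 genes, and for some of the other genes, are therefore given with and without IPMK cKO replicate 1.

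The CD3 genes Cd3d, Cd3e and Cd3g lie together on chromosome 9 of mm10, within 40.1 kb (gene coordinates from GENCODE M21). Cd3g (ENSMUSG00000002033) runs on the minus strand from 44969572 to 44980431, and Cd3d (ENSMUSG00000032094) runs on the plus strand from 44981786 to 44987339. These neighbours are head to head, with 1355 bases between their starts. Cd3e (ENSMUSG00000032093) lies on the minus strand from 44998740 to 45009627. Cd247 (ENSMUSG00000005763), which encodes the zeta chain, is elsewhere, on the plus strand of chromosome 1 from 165788681 to 165877277. The promoters of the head-to-head pair, from 250 bases before to 50 after the start, are printed because the levels of Cd3d and Cd3g moved in opposite ways in 1 library, as given below. They are RefSeq sequences of GRCm38.p6, the assembly of mm10, each on the strand of its gene. Capitals mark the letters GGAAG or its reverse complement CTTCC, the core of sites that ETS family transcription factors bind.
Cd3d, chr9:44981536-44981835, plus strand: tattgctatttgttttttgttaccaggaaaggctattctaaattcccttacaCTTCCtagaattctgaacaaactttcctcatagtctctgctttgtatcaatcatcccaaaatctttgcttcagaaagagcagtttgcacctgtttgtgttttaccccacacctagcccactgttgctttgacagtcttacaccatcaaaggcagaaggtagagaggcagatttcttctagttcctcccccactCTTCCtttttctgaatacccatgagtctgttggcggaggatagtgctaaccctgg
Cd3g, chr9:44980382-44980681, minus strand: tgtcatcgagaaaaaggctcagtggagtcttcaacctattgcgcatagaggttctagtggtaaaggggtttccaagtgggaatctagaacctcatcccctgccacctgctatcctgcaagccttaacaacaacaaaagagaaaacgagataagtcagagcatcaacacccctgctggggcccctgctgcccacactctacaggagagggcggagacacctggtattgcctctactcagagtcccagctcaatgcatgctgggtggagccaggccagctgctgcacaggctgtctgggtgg
The Cd3d window held 2 matches to GGAAG and the Cd3g window 0. Searched on both strands, GGAAG was present in 9 of the 12 promoter windows that the RefSeq table lists for the 9 genes, and in 71.4% of all 32851 windows of that length. The TATA box letters TATAAA were present in 0 of the 12 and in 13.6% of all windows, and CANNTG, the E-box, in 12 of the 12 and in 72.3% of all. Matches of different motifs could overlap. A match is a description of the letters and not a bound site.

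The remaining genes are spread over the genome. Lck (ENSMUSG00000000409) is on chromosome 4 from 129548344 to 129573641 on the minus strand and Zap70 (ENSMUSG00000026117) on chromosome 1 from 36761798 to 36782818 on the plus strand. Lat (ENSMUSG00000030742) is on chromosome 7 from 126363824 to 126369570 on the minus strand. Lcp2 (ENSMUSG00000002699) is on chromosome 11 from 34046920 to 34092295 on the plus strand, and Plcg1 (ENSMUSG00000016933) on chromosome 2 from 160731300 to 160775760 on the plus strand. The last 300 bases of the annotated coding transcripts, where 3′ tags fall, matched no other gene (at least 90% identity over 100 bases) for 7 of the 9. For Cd247, 5 of its 6 transcript ends lay inside a transcript of Pou2f1 on the opposite strand, and for Plcg1 1 of 4 ends overlapped the antisense gene Gm27206. Since counting is not stated to use strand, the counts of Cd247 and Plcg1 could include reads of those genes.

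No difference between IPMK cKO and wild type Treg was detected in any of the 9 genes. By edgeR's quasi-likelihood test with Benjamini-Hochberg adjustment over the 10475 genes tested, 0 of the 9 passed an adjusted p of 0.05 in either direction, with an adjusted p of 0.9999 for each. The background share was 0%, since 0 of all genes passed. The targeted gene Ipmk was among those not called, with a log2 fold change of −3.51 (SE 1.75, edgeR adjusted p = 0.9999), although its groups did not overlap. At an unadjusted p under 0.05 there were 0 of the 9, where 2.56% of all genes lay. DESeq2 called 0 of the 9 as well, and 0.0283% of the 14139 genes to which it gave an adjusted p. The IPMK cKO and wild type values were free of overlap for 0 of the 9, where 10.4% of all genes had no overlap. Estimates were above 0 for 5 and below 0 for 4, with a median log2 fold change of 0.075, beside 0.030 over all genes tested. A p that misses the threshold does not show equal levels. The 95% intervals of the fold change give the sizes that remain possible, and for the 8 genes other than Plcg1 their lower ends were 0.464 to 0.762 and their upper ends 1.46 to 1.92.

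**Figure D1:**
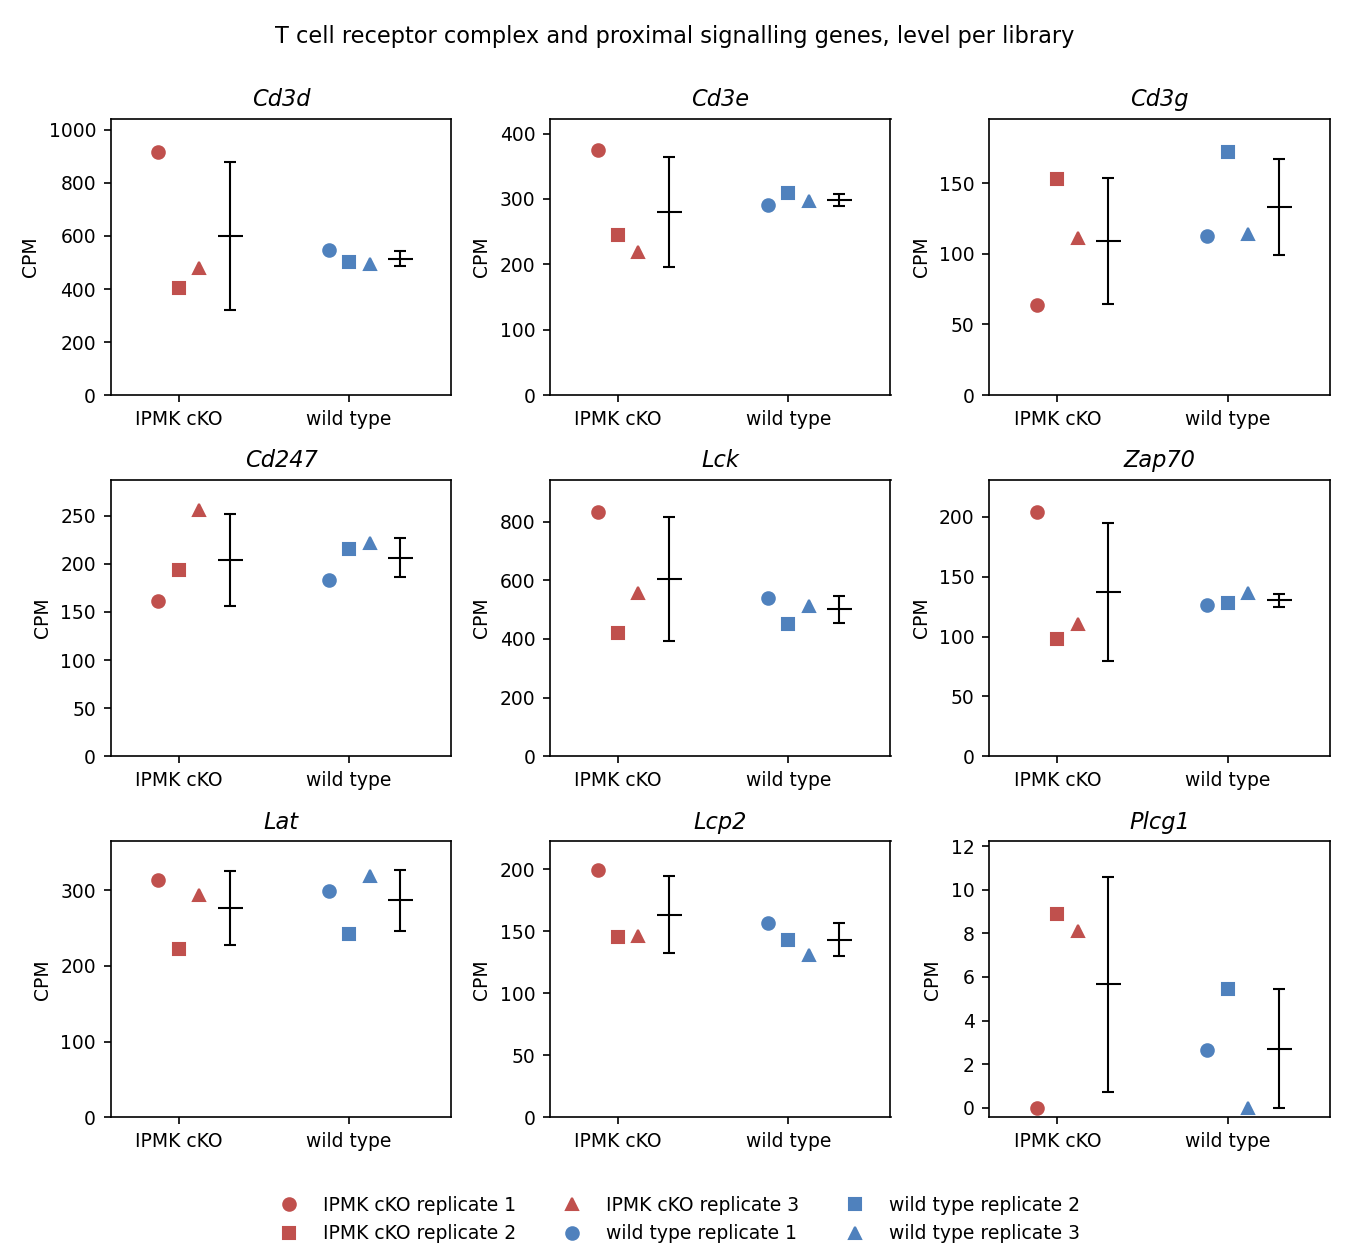
Level of each of the 9 genes in CPM (linear axes), with IPMK cKO libraries in red left of wild type libraries in blue; symbols mark replicates 1 to 3, and the black bar beside each group is its mean ± SD (n = 3). The groups overlap in every panel, IPMK cKO replicate 1 is the highest point for Cd3d, Cd3e, Lck, Zap70 and Lcp2, and Plcg1 sits below 9 CPM throughout.

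Among the CD3 chains, Cd3d, which encodes the delta chain, had 918, 403 and 480 CPM in IPMK cKO replicates 1 to 3, against 549, 502 and 494 CPM in wild type replicates 1 to 3. IPMK cKO replicate 1 was above every other library and the other IPMK cKO libraries were below all of wild type. The means were 600 ± 278 CPM in IPMK cKO and 515 ± 29.5 CPM in wild type (SD, n = 3 each), with a log2 fold change of 0.22 (SE 0.33). The sign of that estimate rested on 1 library, since it was −0.23 without IPMK cKO replicate 1. On total counts with no scaling factor it was −0.031, where the median of all genes was −0.17. Cd3e, the epsilon chain, had 375, 245 and 219 CPM in IPMK cKO, against 290, 309 and 296 CPM in wild type. The wild type libraries lay close together and inside the range of the knockout ones. The log2 fold change of Cd3e was −0.093 (SE 0.29), −0.37 when IPMK cKO replicate 1 was left out and 0.053 without IPMK cKO replicate 3.

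Cd3g, the gamma chain, had 63.6, 153 and 111 CPM in IPMK cKO, against 113, 172 and 114 CPM in wild type. Its lowest value was in IPMK cKO replicate 1, the library in which Cd3d was highest. Cd3g had the most negative estimate of the 9, a log2 fold change of −0.28 (SE 0.37, interval −1.11 to 0.54), and −0.015 without IPMK cKO replicate 1. Cd247, the zeta chain with the most tyrosine motifs of the complex, had 162, 194 and 256 CPM in IPMK cKO, against 183, 215 and 221 CPM in wild type. Here too IPMK cKO replicate 1 was the lowest of all libraries, and replicate 3 was the highest. Its log2 fold change was −0.019 (SE 0.29), and 0.12 without IPMK cKO replicate 1.

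Together the 4 CD3 genes held 0.175%, 0.134% and 0.147% of the counts outside Rn45s in IPMK cKO replicates 1 to 3, against 0.160%, 0.166% and 0.158% in wild type. The knockout libraries were on both sides of the wild type range. Within those counts, the share of Cd3d was 60.4%, 40.5% and 45.0% in IPMK cKO, against 48.3%, 41.9% and 43.9% in wild type. The share of Cd3g was 4.19% in IPMK cKO replicate 1 (exact 95% binomial interval 3.82 to 4.58). It was 15.4% and 10.4% in the other IPMK cKO libraries, and 9.93%, 14.4% and 10.1% in the wild type ones. There were thus 14.4 Cd3d counts for each Cd3g count in IPMK cKO replicate 1, while the ratio was 2.64 and 4.31 in the other IPMK cKO libraries and 4.87, 2.91 and 4.34 in wild type. In the other knockout libraries the ratio was below or within the wild type range. The interval covers counting error only and takes each count as a separate molecule. PCR copies could not be told from separate molecules, so it may be too narrow.

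**Figure D2:**
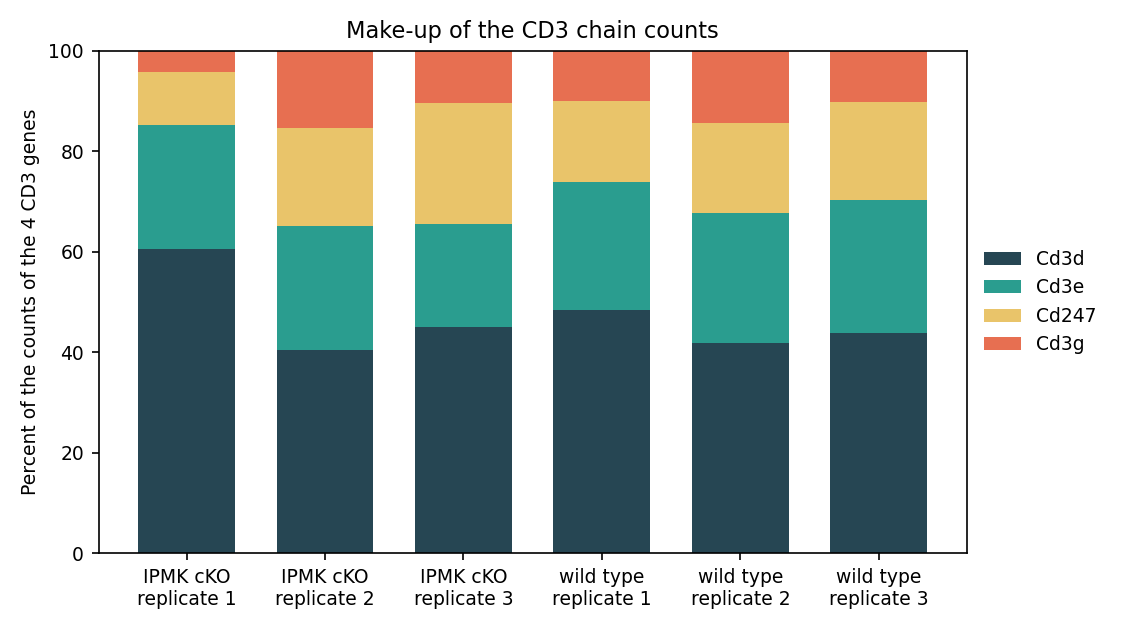
Share of each CD3 gene in the summed counts of Cd3d, Cd3e, Cd247 and Cd3g (percent, stacked to 100), 1 bar per library with IPMK cKO left of wild type. The first bar, IPMK cKO replicate 1, has the largest Cd3d part (60.4%) and the smallest Cd3g part (4.19%).

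Of the kinases, Lck, the Src family kinase that starts receptor signalling, had 834, 419 and 557 CPM in IPMK cKO, against 539, 451 and 511 CPM in wild type. The highest and the lowest value were both in the knockout group, with IPMK cKO replicate 1 highest. Means were 603 ± 212 CPM in IPMK cKO and 501 ± 44.9 CPM in wild type (SD, n = 3 each), and the log2 fold change of 0.27 (SE 0.30) was −0.043 without IPMK cKO replicate 1. Zap70, the kinase that docks on phosphorylated CD3 chains, had 204, 97.7 and 110 CPM in IPMK cKO, against 127, 128 and 136 CPM in wild type. The other knockout libraries lay below all of wild type, and IPMK cKO replicate 1 above it. Its log2 fold change was 0.075 (SE 0.34) with all libraries, −0.33 without IPMK cKO replicate 1 and −0.18 on total counts, near the median of all genes there. Among relatives of these kinases that B cells and myeloid cells use, Syk had no count in any library. Lyn was at 14.9, 0.26 and 4.36 CPM in IPMK cKO, against 1.56, 10.8 and 2.81 CPM in wild type.

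Of the adaptors, Lat, the membrane scaffold, had 314, 222 and 294 CPM in IPMK cKO, against 299, 242 and 319 CPM in wild type. Replicate 2 was the lowest library of each group, and the log2 fold change was −0.051 (SE 0.27), or −0.16 without IPMK cKO replicate 1. Lcp2, which encodes the cytosolic scaffold SLP-76, had 199, 146 and 146 CPM in IPMK cKO, against 157, 143 and 131 CPM in wild type. Its highest value was again in IPMK cKO replicate 1, and its log2 fold change was 0.19 (SE 0.29), or 0.017 without that library. Lat2, the paralog of Lat in B cells and myeloid cells, was at 0, 10.6 and 0 CPM in IPMK cKO, against 0.12, 8.06 and 4.47 CPM in wild type. Blnk, the B cell counterpart of Lcp2, had no count in any library.

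Plcg1, the enzyme that makes IP3, was the least abundant of the 9, with 210 counts in all libraries together. It had 0, 68 and 80 counts in IPMK cKO replicates 1 to 3, against 22, 40 and 0 in wild type replicates 1 to 3. These are 0, 8.88 and 8.12 CPM in IPMK cKO, against 2.65, 5.47 and 0 CPM in wild type. Each group thus had a library with no count, where 3 counts would be 0.422 CPM (IPMK cKO replicate 1) and 0.312 CPM (wild type replicate 3). The log2 fold change was 1.07 (SE 2.19) with an interval of −3.76 to 5.90, and 1.64 without IPMK cKO replicate 1. The interval allows a large rise or a large fall, and the counts within a group ranged widely between libraries. Plcg2, the related phospholipase of B cells and myeloid cells, had at most 0.13 CPM in IPMK cKO and no count in wild type libraries. Fcer1g, a signalling chain of Fc receptors related to the zeta chain, had at most 0.52 CPM, also in 1 IPMK cKO library.

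**Figure D3:**
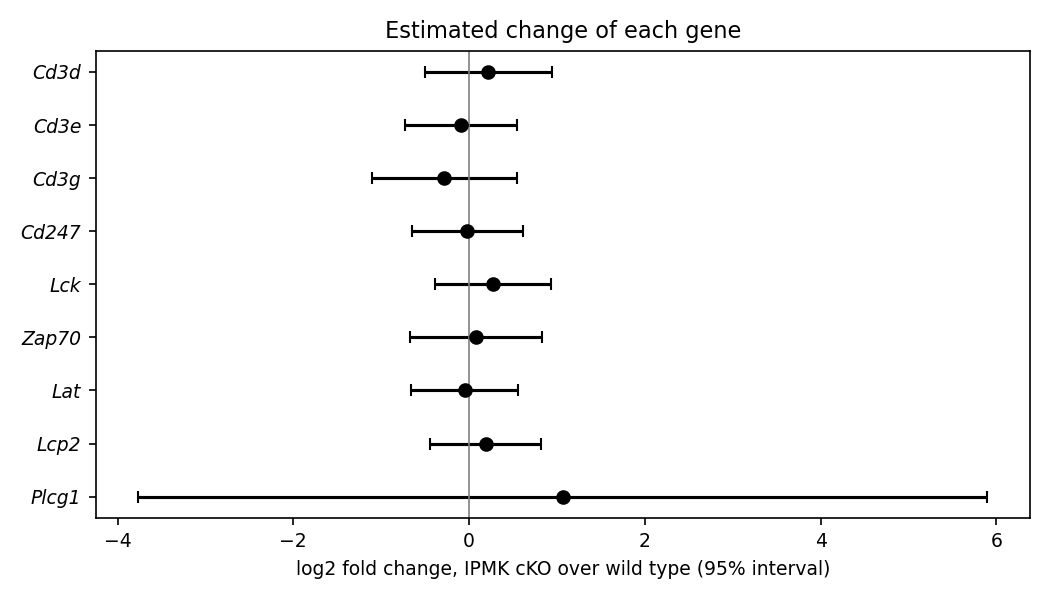
Estimated log2 fold change of each gene (points, IPMK cKO over wild type) with its 95% interval from edgeR's quasi-likelihood fit (bars, 3 libraries per group). Every interval includes 0, and the interval of Plcg1 is the widest, from −3.76 to 5.90.

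In tag levels, Lck (603 ± 212 CPM) and Cd3d (600 ± 278 CPM) were the highest of the 9 genes in IPMK cKO Treg, and their libraries overlapped. Cd3e (280 ± 83.7 CPM) and Lat (277 ± 48.3 CPM) came next, each within the spread of the other. Cd247 was at 204 ± 48.0 CPM, below Lat in each IPMK cKO library, though the ranges of Cd247 and Lat overlapped. Lcp2 followed at 164 ± 30.8 CPM, Zap70 at 137 ± 57.9 CPM and Cd3g at 109 ± 44.5 CPM, again without separation, and Plcg1 was last at 5.67 ± 4.92 CPM. Without IPMK cKO replicate 1 the IPMK cKO means were 488 CPM for Lck, 441 for Cd3d, 258 for Lat, 232 for Cd3e, 225 for Cd247, 146 for Lcp2, 132 for Cd3g, 104 for Zap70 and 8.50 for Plcg1. In wild type Treg the SDs were smaller for each gene. Cd3d (515 ± 29.5 CPM) and Lck (501 ± 44.9 CPM) did not differ beyond their spread, nor did Cd3e (299 ± 9.41 CPM) and Lat (286 ± 39.9 CPM). Cd247 stood alone at 207 ± 20.4 CPM. Lcp2 (143 ± 13.1 CPM), Cd3g (133 ± 34.1 CPM) and Zap70 (130 ± 5.28 CPM) had overlapping library values, and Plcg1 was last at 2.70 ± 2.73 CPM (SD, n = 3 in each group). Between genes these are levels in tags, and how well each annotated 3′ end is caught can differ.

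The SD between libraries was larger in IPMK cKO than in wild type for all 9 genes, and for 6 of the 9 without IPMK cKO replicate 1 (over 2 libraries). For the 8 other than Plcg1 the coefficient of variation was 17.5% to 46.3% in IPMK cKO and 3.15% to 25.7% in wild type, while for Plcg1 it was 86.9% in IPMK cKO and 101% in wild type. This is given beside the whole table, where the SD was larger in IPMK cKO for 67.0% of the genes tested, and for 46.6% without IPMK cKO replicate 1. IPMK cKO replicate 1 held the highest or lowest value, ties included, for 8 of the 9 genes, the exception being Lat, beside 63.9% of all genes. The 9 genes summed to 0.353%, 0.254% and 0.301% of the counts outside Rn45s in IPMK cKO, against 0.318%, 0.300% and 0.311% in wild type. In bulk samples, fewer cells that express a gene and less of its RNA per cell cannot be told apart.

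Over the 6 libraries, the genes whose log2 CPM moved most like the mean of the 9 were Zc3h18, Swt1, Ccny, Cebpz and Cnot1. Their root mean square difference from that mean was 0.0959 to 0.108 on the log2 scale, among 3131 candidate genes of at least 50 CPM. That mean follows Plcg1, the member with the widest swings. For the 4 CD3 chains alone the nearest genes were Fam107b, Vasp, B2m, Smap2 and Grb2 (0.0738 to 0.105). The chains partly cancel in that mean. In IPMK cKO replicate 1 the log2 deviations from each gene's own mean were 0.77 for Cd3d and 0.40 for Cd3e. They were −0.86 for Cd3g and −0.33 for Cd247. Genes near the mean of the chains therefore need not move like any single chain.

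**Figure D4:**
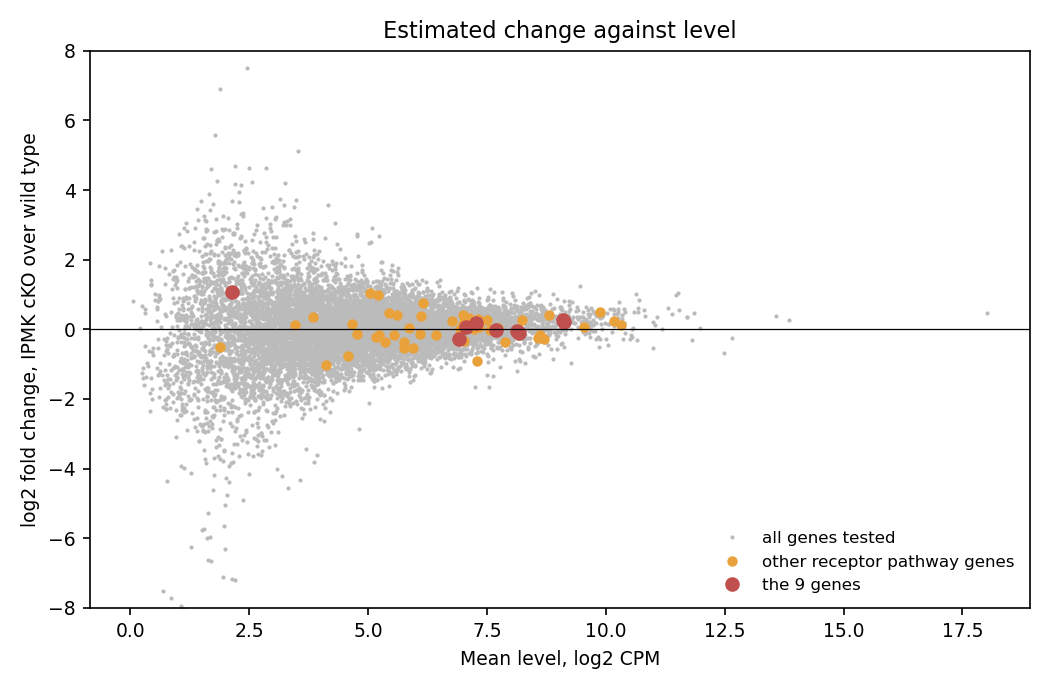
Log2 fold change of IPMK cKO over wild type against mean log2 CPM for the genes tested (grey), the other receptor pathway genes (orange) and the 9 genes (red); 15 genes beyond ±8 on the vertical axis are not drawn. Apart from Plcg1, the red points sit at the abundant end of the table between −0.28 and 0.27.

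Around these 9 genes, 54 symbols of the wider receptor pathway were listed, of which 49 were in the files and 48 were tested. By edgeR 0 rose, 0 fell and 48 did not pass over all genes tested. Estimates were above 0 for 27 and below 0 for 21, with a median log2 fold change of 0.038, beside 0.030 for all genes. The libraries of IPMK cKO lay wholly above wild type for 5 of the 48 (10.4%, against 4.74% of all genes) and wholly below for 2 (4.17%, against 5.66% of all genes). The 5 were Themis, Ubash3a, Dgka, Itpr2 and Itpr3, and the 2 were Sla and Nck2, a set named after its values were seen. The 5 listed symbols of receptor constant segments were among those without an entry and were not analysed here.

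The coreceptors and costimulatory receptors had 4 estimates above 0 and 2 below. Cd4, the coreceptor that brings LCK to the receptor, had 302, 296 and 451 CPM in IPMK cKO, against 437, 374 and 441 CPM in wild type. The groups overlapped, and its log2 fold change was −0.26 (SE 0.28). Cd28, the main costimulatory receptor, had 0.25 (SE 0.28), Ptprc, the phosphatase CD45 that primes LCK, 0.12 (SE 0.26), and Cd5, an inhibitory receptor whose level follows receptor signal strength, −0.38 (SE 0.39). The Src and Tec family kinases had 1 estimate above 0 and 4 below. The log2 fold change was −0.29 (SE 0.30) for Fyn, a Src family kinase beside LCK. Csk, which restrains LCK, had 0.27 (SE 0.29). Fyn was at 234, 437 and 450 CPM in IPMK cKO, against 433, 499 and 434 CPM in wild type, so only IPMK cKO replicate 1 lay outside the wild type range. Without that library the estimates were −0.043 for Fyn, 0.046 for Csk, −0.17 for Cd4, 0.098 for Cd28, 0.015 for Ptprc and −0.077 for Cd5.

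Among 16 tested adaptors and exchange factors 9 estimates were above 0 and 7 below. Sla, which encodes a Src-like adaptor that dampens receptor signalling and helps remove the receptor from the surface, had 98.4, 125 and 106 CPM in IPMK cKO, against 246, 191 and 179 CPM in wild type. Every IPMK cKO library was below every wild type library. Means were 110 ± 13.6 CPM in IPMK cKO and 205 ± 36.1 CPM in wild type (SD, n = 3 each). Its log2 fold change was −0.90 (SE 0.29, interval −1.54 to −0.27), the only one of the 48 with an unadjusted p under 0.05 (2.08% of the list, against 2.56% of all genes). It did not pass over all genes (edgeR adjusted p = 0.9999, DESeq2 adjusted p = 0.461). Themis, an adaptor of thymocyte selection, had 51.4, 44.7 and 35.7 CPM in IPMK cKO, against 29.8, 14.5 and 19.6 CPM in wild type. The groups did not overlap, and the log2 fold change was 1.04 (SE 0.50), not called. Grap2, which links LAT to SLP-76, had 0.28 (SE 0.32) and the exchange factor Vav1 0.23 (SE 0.34). Without IPMK cKO replicate 1 these were −0.84 for Sla, 0.91 for Themis, 0.30 for Grap2 and 0.0032 for Vav1.

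The 10 negative regulators had 5 estimates above 0 and 5 below. Ubash3a, a phosphatase-like suppressor of receptor signalling, had 111, 63.4 and 93.7 CPM in IPMK cKO, against 54.3, 50.2 and 54.5 CPM in wild type. All IPMK cKO libraries were higher, with a log2 fold change of 0.76 (SE 0.35) that was not called. Under 15 alternative fits that estimate ran from 0.54 to 0.92. The phosphatases Ptpn6 and Ptpn22, which act on the proximal kinases, had −0.30 (SE 0.29) and −0.33 (SE 0.34), and the adaptor Dok2 −0.53 (SE 0.44). Without IPMK cKO replicate 1 Dok2 was at −0.82.

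Of the 11 genes downstream of phospholipase C-gamma1, 8 estimates were above 0 and 3 below, where 51.8% of all genes were above 0. For 3 of the 11 (Dgka, Itpr2 and Itpr3) IPMK cKO lay wholly above wild type, against 4.74% of all genes. These 11 genes were not tested as a group. Dgka, a kinase that consumes diacylglycerol, had 1313, 1146 and 852 CPM in IPMK cKO, against 724, 766 and 834 CPM in wild type. IPMK cKO replicate 3 exceeded the highest wild type library only slightly. The log2 fold change of Dgka was 0.51 (SE 0.26), and 0.28 to 0.67 under 15 alternative fits. Itpr3, an IP3-gated calcium channel, had 41.1, 40.5 and 64.8 CPM in IPMK cKO, against 7.22, 31.6 and 35.1 CPM in wild type, and a log2 fold change of 0.99 (SE 0.60). Itpr2, of the same channel family, had 0.41 (SE 0.25), with its highest value, 591 CPM, in IPMK cKO replicate 1. Prkcq, the protein kinase C of the T cell contact site, and Rasgrp1, which activates RAS on diacylglycerol, had 0.41 (SE 0.41) and 0.10 (SE 0.32). Prkcq was at 248 CPM in IPMK cKO replicate 1 and at 91.6 to 124 CPM in the other libraries, and its estimate was −0.23 without that library, where Rasgrp1 was at 0.31. None of these passed.

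**Figure D5:**
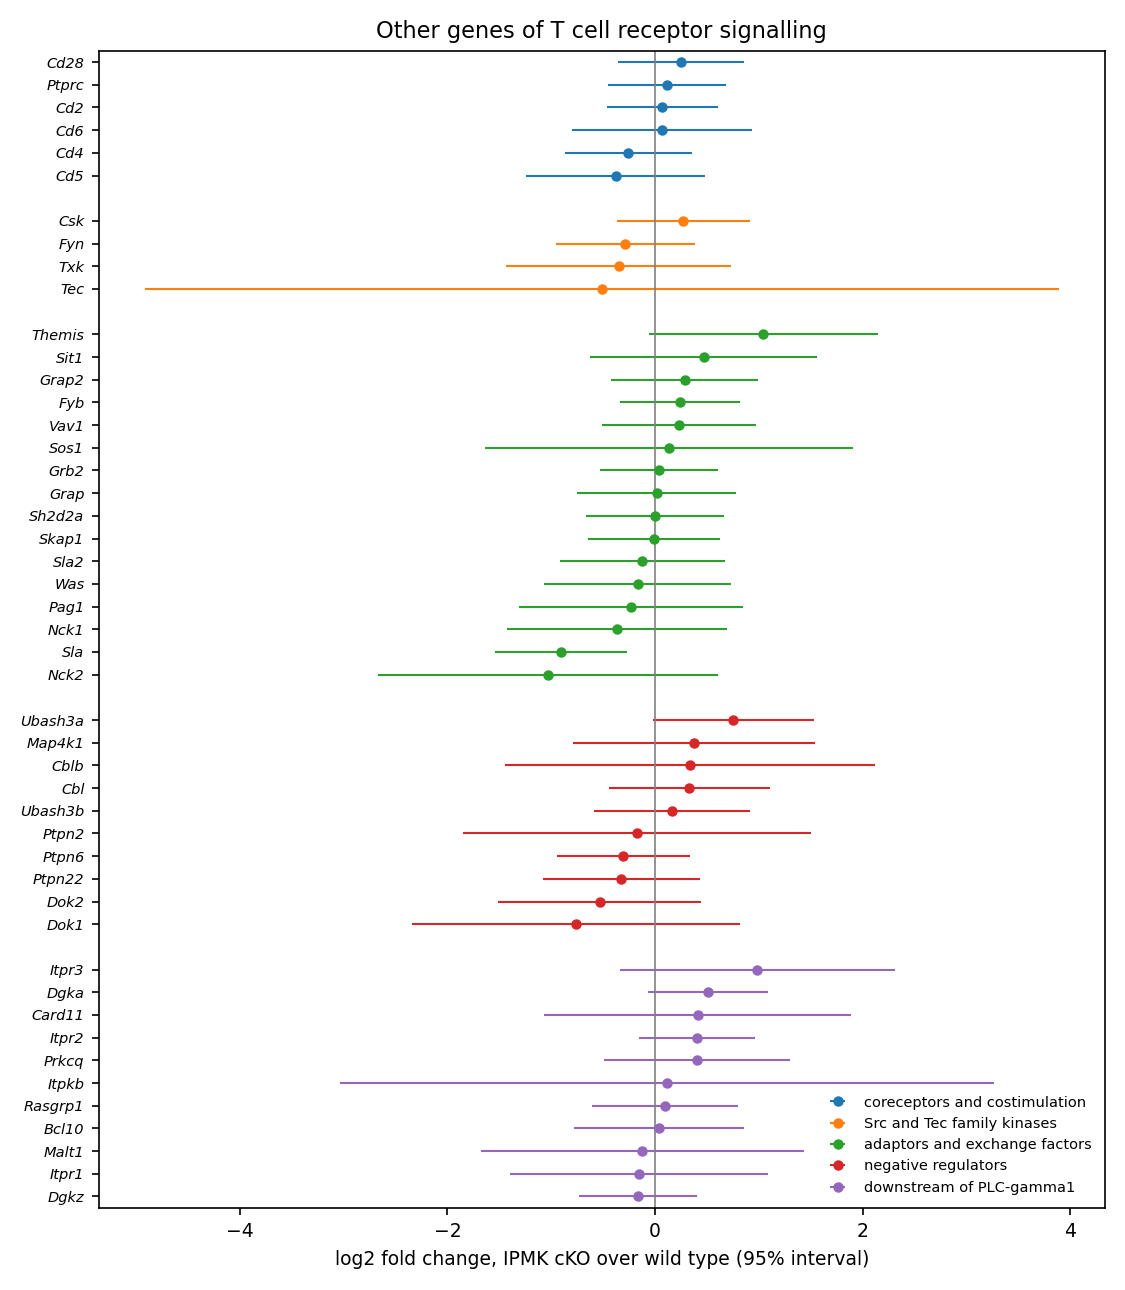
Log2 fold change (IPMK cKO over wild type, points) with 95% intervals (bars) for the other pathway genes reported, grouped and coloured by role. The interval of Sla, −1.54 to −0.27, is the only one that does not include 0.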

How the data were processed

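Total RNA of sorted Treg was extracted with Trizol and made into 3′ tag libraries (Lexogen QuantSeq), per the labels' protocols. All deposited files hold raw counts per gene symbol, which the authors did not normalize, as whole numbers with different totals per library. Bowtie2, edgeR, mm10 and hg19 are named, per the submitters' processing notes, with neither role nor version. The sources used here do not name the counting program, annotation or strand setting. Libraries were grouped by genotype label (3 and 3).

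The test used edgeR 4.0.16 (R 4.3.3) on TMM library sizes. Genes were kept by filterByExpr (minimum count 10), which left 10475 including all 9 genes. The test was glmQLFTest, IPMK cKO over wild type, with Benjamini-Hochberg adjustment and a threshold of 0.05. SEs are the estimate over the square root of F, and 95% intervals use the fit's degrees of freedom. The procedure was tested on simulated counts. Alternatives were other size factors and filters, DESeq2 1.42.0, limma-voom (limma 3.58.1), removal of Rn45s, the replicate number as a block and leaving out each library.

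Pathway genes were named by a fixed rule: 14 by name, and in each role the 2 with the smallest p. Nearest genes by pattern used log2 CPM with a prior count of 2. Itpr2 and Nck2 were named after their values were seen. A few listed genes are not reported here. The 9 genes and the lists were chosen with earlier results of these data known. Transcript ends were searched with BLAST 2.17.0.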

Additional observations from a re-analysis of the deposited data

How the results depend on the processing

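Under 15 alternatives to the fit, 0 of the 9 genes and 0 of the pathway genes were called in any. An adjusted p threshold of 0.1 also gave 0. Over all genes the count of calls was 0 in the main fit, 4 by DESeq2 (1 higher, 3 lower), and 0 to 1 when a single library was left out. The 1 call was made without IPMK cKO replicate 1. It was also 1 without both libraries numbered 1, an alternative added after the data were seen. Of 135 values of the 9 genes under the alternatives, 119 kept their sign and 16 did not. Of 300 values for the named pathway genes and Ipmk, 292 did and 8 did not. None of these values was called.

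Signs of log2 fold changes turned in these cases, and the cause was not tested. With single libraries left out, Cd3d ran from −0.23 to 0.40, Cd3e from −0.37 to 0.053, Cd247 from −0.22 to 0.12 and Lck from −0.043 to 0.44. Zap70 ran from −0.33 to 0.23, Lat from −0.18 to 0.056, Prkcq from −0.23 to 0.65 and Rasgrp1 from −0.11 to 0.31. Without both libraries numbered 1 the values were −0.18 for Cd3d, 0.043 for Cd247, −0.35 for Zap70, 0.093 for Cd5, −0.087 for Ptprc, −0.11 for Vav1 and −0.13 for Prkcq. On total counts they were −0.031 for Cd3d, −0.18 for Zap70, −0.030 for Lcp2, −0.087 for Ptprc and −0.071 for Rasgrp1. That scaling moved the median of all genes by −0.20, and its part in these turns of sign was not tested. Zap70 was −0.021 by limma-voom.

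With the replicate number as a block 0 genes were called, and Zap70 was −0.0055. Correlations of same-numbered libraries' deviations from their group means were 0.045, 0.088 and 0.027. Each library correlated best with its own number, a hint from the data only, and with values this low the numbers are not taken as pairs. Plcg1 rests on 210 counts in all, unevenly spread over the libraries of each group.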
